A study of Mus musculus with 6 samples.

Results

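Collagens, laminins and integrins were followed in mouse embryonic stem (ES) cells that had begun to differentiate with or without a normal supply of Atad2, a bromodomain AAA ATPase bound to acetylated chromatin. Genes were taken by their symbol in the array annotation, as collagen chains (Col, a number and a chain), as laminin chains (Lama, Lamb or Lamc with a number) or as integrin subunits (symbols starting with Itga or Itgb, without the Itgb1bp and Itgb3bp binding proteins). This gave 77 genes out of 19057 with a single symbol, read by 176 probes. They were 41 collagen, 9 laminin, 17 integrin alpha and 10 integrin beta genes, the last of which include the integrin-like gene Itgbl1. All were cells of 1 mouse ES line in which the Atad2 gene carries a tag. They had been infected with a lentiviral vector (pLKO.1) for a short hairpin RNA, selected with puromycin and kept as stable pools rather than clones. In shAtad2 cells the hairpin was directed against Atad2, and in shCtrl cells it was a control, called non-targeting in the labels and elsewhere in the study an inactive hairpin. Before differentiation the cells grew on dishes coated with gelatin, which is denatured collagen, and both groups were then taken 3 days after leukaemia inhibitory factor (LIF), which holds mouse ES cells in the undifferentiated state, was removed. By the methods, cells without LIF were left to form spheroids. Total RNA was hybridised to Illumina MouseWG-6 v2.0 beadchips, 3 arrays per group. Whether the replicates were separate cultures is not stated, and the p-values here thus describe the spread among these arrays alone, which may be technical. As these are bulk samples, fewer cells of a type and less RNA per cell cannot be told apart.

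Laminins are cross-shaped trimers of one alpha, one beta and one gamma chain, and the trimer of Lama1, Lamb1 and Lamc1 is the first laminin of the mouse embryo. With the collagen IV network, chiefly made of Col4a1 and Col4a2, they build the basement membrane on which the epiblast and the primitive endoderm rest. Integrins are receptors of one alpha and one beta chain that bind these proteins and link them to the actin cytoskeleton.

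The basal promoters of 3 genes are shown because these genes stood out below, Lamb1 as the member with the smallest p-value, Col4a5 as a member whose p-value depended on the pairing of replicates, and Col5a1 as a higher member whose groups did not overlap. Each run is the 250 bases before the annotated start in RefSeq (build GRCm38.p6), all on the plus strand, at chr12:31265043-31265292 for Lamb1, chrX:141475169-141475418 for Col4a5 and chr2:27886175-27886424 for Col5a1. Capitals mark matches on either strand to the GC box (GGGCGG) or the CCAAT box (CCAAT).
Lamb1: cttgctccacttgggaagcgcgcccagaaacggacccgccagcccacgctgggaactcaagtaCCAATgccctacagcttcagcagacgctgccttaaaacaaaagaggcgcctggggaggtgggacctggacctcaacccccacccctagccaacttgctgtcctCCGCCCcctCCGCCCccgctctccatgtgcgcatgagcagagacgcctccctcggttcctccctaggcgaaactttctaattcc
Col4a5: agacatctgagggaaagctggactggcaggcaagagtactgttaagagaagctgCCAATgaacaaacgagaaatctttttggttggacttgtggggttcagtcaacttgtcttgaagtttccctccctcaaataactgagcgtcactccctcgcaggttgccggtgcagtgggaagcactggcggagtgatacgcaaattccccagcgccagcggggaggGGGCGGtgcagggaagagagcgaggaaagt
Col5a1: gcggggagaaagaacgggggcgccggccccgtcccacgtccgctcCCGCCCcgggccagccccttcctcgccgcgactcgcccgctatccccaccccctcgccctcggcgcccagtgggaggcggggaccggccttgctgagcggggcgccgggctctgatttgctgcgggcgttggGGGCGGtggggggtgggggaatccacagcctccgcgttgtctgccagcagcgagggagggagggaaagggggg
The Lamb1 run held 2 GC boxes and 1 CCAAT box, that of Col4a5 held 1 of each, and that of Col5a1 held 2 GC boxes. None of the 3 held the letters TATAAA of a TATA box. Among the 32851 promoter windows of the same length in that table, 32.7% held a GC box, 33.8% a CCAAT box and 12.4% a TATA box. These matches are a description of the letters alone.

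On the arrays, the level of a probe is its normalized log2 intensity, and a probe was above background where its detection p-value was under 0.05. Between 39.3% and 40.9% of the 45281 probes were above background on an array. The knocked-down gene read 5.69, 5.64 and 5.41 in shAtad2 against 6.28, 6.48 and 6.39 in shCtrl, without overlap, a 1.74-fold lower level (adjusted p = 0.31 by limma, 0.0927 with the replicate number as a block). The size of this difference depended on the background correction, with a change of -0.80 as reported and of -0.27 without it or in the processed values of the authors. Replicate 3 differed from the other arrays in either group, at 26.1 and 26.8 on a first principal component of 48% of the variance, against -15.4 to -11.9. All 11 stem cell markers examined, among them Pou5f1, Nanog and Sox2, were above background on at least 3 arrays, as the label of the cells implies. Some differed on replicate 3, relative to the mean of the first and second arrays of each group. Zfp42 lay at -1.99 in shAtad2 and -1.45 in shCtrl, Esrrb at -1.86 and -1.04, and Utf1 at 1.10 and 0.91. Of the 11 markers 2 were higher in shAtad2 (18.2%, against 49.7% of all genes), Utf1 at 0.34 and Sox2 at 0.23. The other 9 were lower, among them Lin28a at -0.30 and Dppa5a at -0.28. The median change of the 11 was -0.22, and none had an unadjusted p under 0.05 by limma. Their summed intensity ran from 45820 to 49110 in shAtad2 and from 52220 to 56230 in shCtrl. Without Dppa5a, the brightest of them, the sums ran from 23360 to 25060 and from 25010 to 29180 and overlapped. The part of this shift in the results below was not tested.

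A minority of the family could be measured. Of the 77 genes, 33 (42.9%) had a probe above background on at least 3 of the 6 arrays, against 10072 of 19057 genes overall (52.9%), and they were tested through the brightest such probe. Laminins were measured most often, with 6 of 9 genes, followed by 7 of 17 integrin alpha, 4 of 10 integrin beta and 16 of 41 collagen genes. Of the 33 genes, 27 were above background on all arrays. For 31 genes no probe was above background on any array. Among these were Col1a1, Col1a2 and Col3a1, the fibrillar collagens that fibroblasts make in bulk, Col4a3 and Col4a4, the collagen IV chains of the mature kidney filter, and Itga1 and Itga2, collagen-binding integrins. Others in that group were Itgam and Itgax of myeloid cells, Itgb3 of platelets, and Itgb6 and Itgb8, which partner with Itgav. The laminin genes Lama4 and Lamc3 were also among them. Another 8 genes were above background on 1 array, namely Col17a1, Col23a1, Col25a1, Col4a6, Col9a1, Itga11, Itga4 and Itgb2, and 5 on 2 arrays, namely Col11a1, Col5a3, Itga2b, Itgad and Lama2. A probe that is not above background gives only a bound, and no change is reported for these genes.

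**Figure D1:**
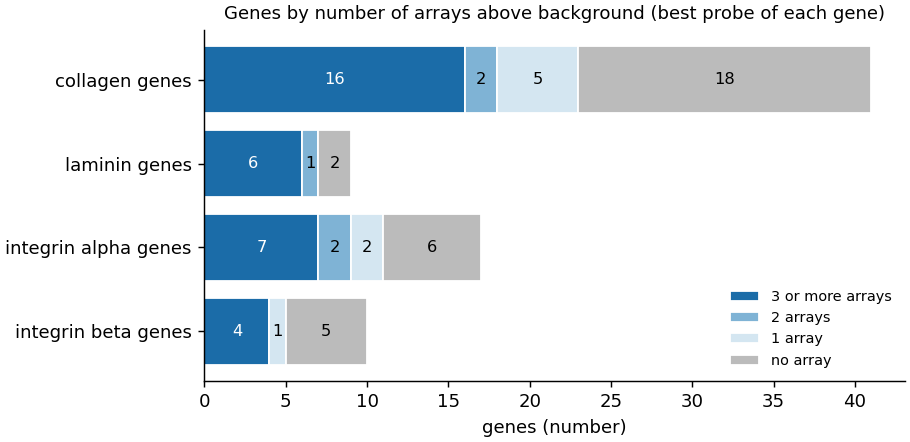
Horizontal bars give the number of genes in each class, split by how many of the 6 arrays read the best probe of the gene above background. Dark blue parts are the 33 genes that were tested, 16 collagen, 6 laminin, 7 integrin alpha and 4 integrin beta genes, and grey parts are the 31 genes that were not above background on any array.

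Whether the knockdown moved single members was asked with limma, fitted over all 10072 genes with Benjamini-Hochberg adjustment. At an adjusted p under 0.05 none of the 33 members was called, against 0% of all genes, and the smallest adjusted p among members was 0.377. An unadjusted p under 0.05 was found for 2 members (6.06%) against 7.92% of all genes. Both were lower in shAtad2, a direction that held 3.8% of all genes. The 3 arrays of one group lay entirely on one side of the other 3 in 3 members (9.09%) against 13.5% of all genes. Of these, 1 was higher, where the background was 6.94%, and 2 were lower, where it was 6.59%. By these counts the family as a whole did not stand above the other genes. The third arrays of the 2 groups deviated together, while for replicates 1 and 2 the numbers did not mark out pairs. With the replicate number as a block, 4 members (12.1%) had an unadjusted p under 0.05 by limma, against 13.4% of all genes. Of these, 2 were higher (background 6.54%) and 2 lower (background 6.9%). At an adjusted p under 0.05 that fit called 0 members against 0.0993% of all genes, with a smallest adjusted p of 0.134 among members.

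Changes below are shAtad2 minus shCtrl on the log2 scale with the standard error of the fit. In shAtad2 17 of the 33 members read higher and 16 read lower. Their median change was 0.0083, beside -0.0012 over all genes. No member differed by a factor of 2 or more, as did only 25 of all 10072 genes. The median size of a change regardless of sign was 0.13 in members and 0.14 over all genes. By class, 10 of 16 collagen genes were higher (median 0.018), 3 of 6 laminin genes (median -0.0058), 3 of 7 integrin alpha genes (median -0.11) and 1 of 4 integrin beta genes (median -0.12).

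**Figure D2:**
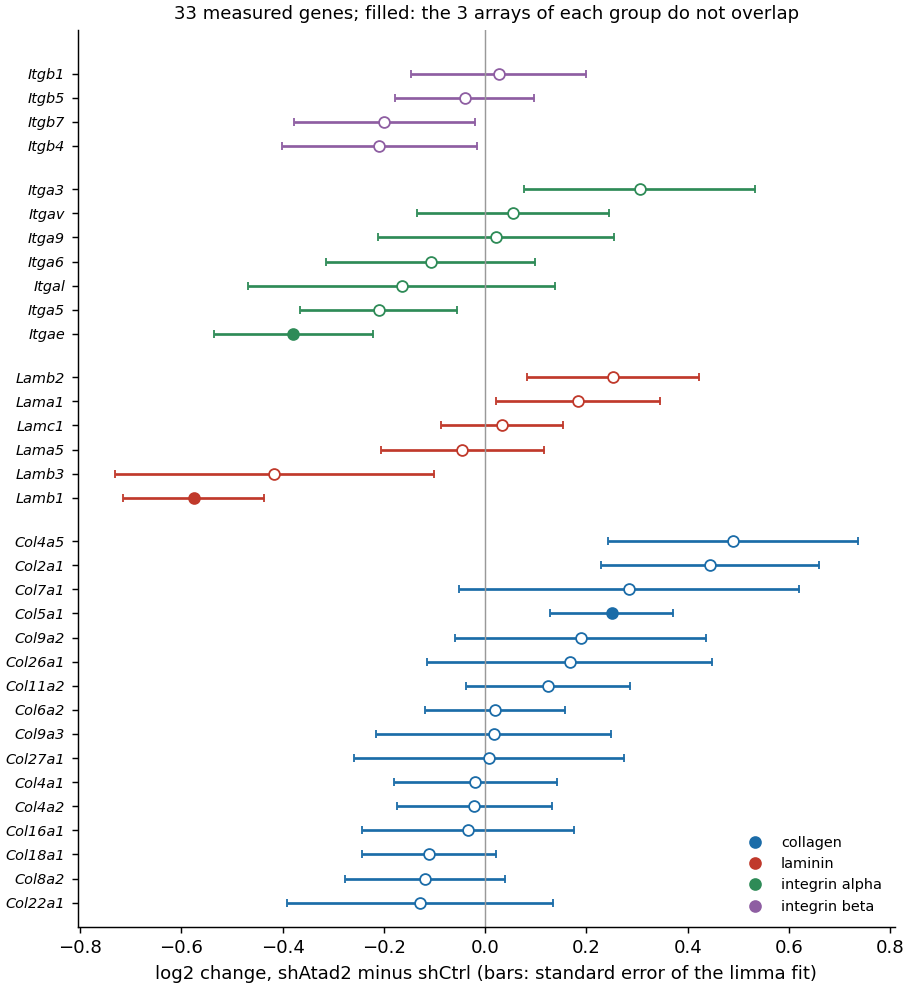
Each point is the log2 change of a measured gene, shAtad2 minus shCtrl, by class, with the standard error of the limma fit as bars. Filled points mark the 3 genes whose groups of 3 arrays did not overlap, Lamb1 and Itgae on the lower side and Col5a1 on the higher side, and the other 30 points are open.

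Lamb1, the beta chain of the early embryonic laminin, was the member with the smallest p-value. It read 5.19, 5.34 and 5.14 in shAtad2 and 5.64, 5.90 and 5.86 in shCtrl. Every shAtad2 array was below every shCtrl array, and the difference was -0.45, -0.56 and -0.72 in the same-numbered pairs. The change was -0.58 (SE 0.14), or 1.49-fold lower, from 5.80 ± 0.14 to 5.22 ± 0.10 (SD, n = 3), with a 95% interval of -0.90 to -0.25. By limma the unadjusted p was 0.00344 and the adjusted p 0.377 (0.134 with the replicate block). The gene has a single probe here, which is dim though above background on all arrays. Without background correction its change was -0.16 and its unadjusted p by limma 0.0661, and in the processed values of the authors they were -0.16 and 0.068.

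The partner chains of Lamb1 were examined next. Lama1, the alpha chain of the same trimer, read 6.63, 6.21 and 6.14 in shAtad2 against 6.11, 6.18 and 6.14 in shCtrl. The first shAtad2 array was the only one away from the rest, and the change was 0.18 (SE 0.16, 95% interval -0.19 to 0.56). Lamc1, the gamma chain shared by most laminins, read 10.01, 10.09 and 10.04 in shAtad2 against 10.05, 9.97 and 10.02 in shCtrl. Its groups overlapped within a narrow range, with a change of 0.034 (SE 0.12, 95% interval -0.25 to 0.31), and a second Lamc1 probe differed by 0.19 (SE 0.15). To set the chains against each other within an array, the level of a partner was subtracted from that of Lamb1. Lamb1 minus Lamc1 was -4.82, -4.75 and -4.90 in shAtad2 and -4.41, -4.08 and -4.16 in shCtrl, and Lamb1 minus Lama1 lay between -1.44 and -0.88 in shAtad2 and between -0.47 and -0.28 in shCtrl. Neither set overlapped between the groups. The two-sided exact permutation p was 0.1 for each, the smallest that 3 arrays against 3 allow, and this comparison was chosen after the values were seen. As Lamb1 alone already separated the groups and Lamc1 was near level, the comparison gives no separate support.

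The remaining laminin genes were Lama5, the alpha chain of most later basement membranes (-0.045, SE 0.16), Lamb2, a beta chain of nerve, muscle and kidney (0.25, SE 0.17), and Lamb3, a beta chain of epidermal laminin (-0.42, SE 0.31). Lamb2 was higher in each same-numbered pair, by 0.38, 0.19 and 0.19, but its groups overlapped. Lamb3 was above background on 1 shAtad2 and 2 shCtrl arrays, and its change ran from -0.81 without shCtrl 2 to -0.16 without shCtrl 1, so its size is uncertain.

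Markers of extraembryonic endoderm, cells that lay down much of the laminin and collagen IV of the early embryo, were read beside Lamb1. Of 20 genes in that list, which holds no member, 10 were measured, 5 reading higher and 5 lower (median 0.017). The 2 with the smallest p-values were the endocytic receptor Lrp2 (0.47, SE 0.15) and the factor Foxa1 (-0.68, SE 0.25), with adjusted p = 0.498 and 0.552 by limma. Foxa1 was above background on 4 arrays, so the size of its change is uncertain. The defining genes Gata4, Sox7, Sox17, Foxa2, Afp and Ttr were not above background on 3 arrays. The summed intensity of the measured genes ran from 2679 to 3037 in shAtad2 and from 2364 to 2638 in shCtrl. That these ranges did not overlap rested on Lrp2, which made up 36.7% to 54.4% of the sum, since the other 9 genes summed to 1285 to 1422 in shAtad2 and 1248 to 1670 in shCtrl. Gata6, a regulator of primitive endoderm, read 7.25, 7.42 and 4.64 in shAtad2 against 8.46, 7.96 and 5.83 in shCtrl. It was lower in each pair (adjusted p = 0.883 by limma, 0.0927 with the replicate block), and on replicate 3 it lay at -2.69 in shAtad2 and -2.38 in shCtrl from the mean of the first and second arrays. Lamb1 differed in that way by -0.13 and 0.092. Pdgfra, a receptor made by primitive endoderm, was also lower in each pair, by -1.30, -0.59 and -0.21, with overlapping groups (adjusted p = 0.892 by limma, 0.209 with the block). Gata6 and Pdgfra were each above background on 5 arrays and were picked after their values were seen. Of the other measured markers, Pth1r (0.31), Sparc (0.17), Plat (0.10) and Dab2 (0.041) read higher. Hnf4a (-0.072) and Amn (-0.0057) read slightly lower. The part of these cells in the Lamb1 difference was not tested.

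**Figure D3:**
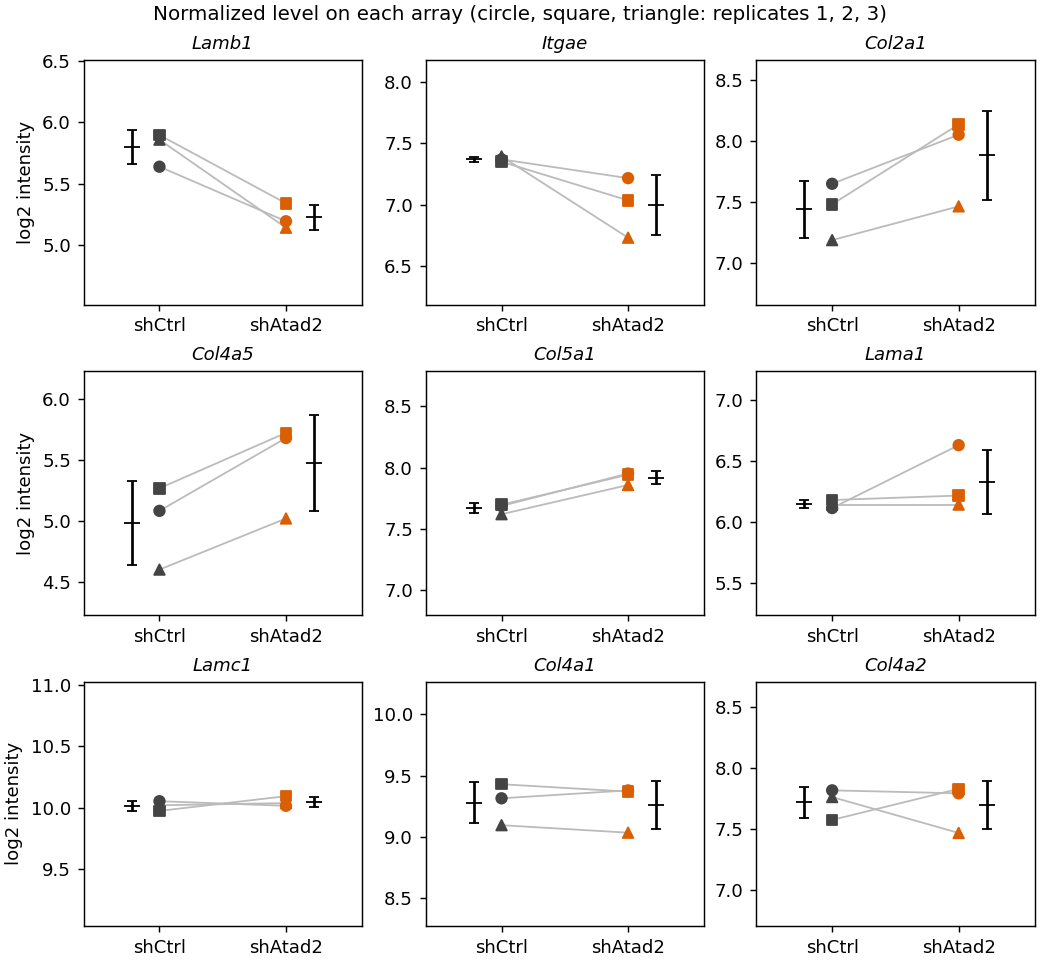
Normalized log2 intensity of 9 members on each of the 6 arrays, in panels that each span 2 log2 units. Grey lines join arrays of the same replicate number, and the bars beside the points are the mean and SD of the 3 arrays. Lamb1, Itgae and Col5a1 show groups that do not overlap, Col2a1 and Col4a5 show lines of like slope from shCtrl up to shAtad2 with replicate 3 the lowest of each group, and Lamc1 and Col4a1 lie near level.

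The 2 main collagen IV chains, which share the basement membrane with Lamb1, lay near no change. Col4a1 read 9.38, 9.37 and 9.03 in shAtad2 against 9.31, 9.43 and 9.09 in shCtrl, and the third array was the lowest of each group. Its change was -0.019 (SE 0.16, 95% interval -0.39 to 0.35). Col4a2, the other chain of the common collagen IV trimer, read 7.79, 7.83 and 7.47 against 7.82, 7.57 and 7.76, a change of -0.021 (SE 0.15, 95% interval -0.38 to 0.33). Both pairs of groups overlapped. These genes are transcribed in opposite directions on chromosome 8. Their annotated starts in RefSeq lie 21 bases apart, and the annotated transcripts overlap there at their beginnings. Col18a1, a basement membrane collagen whose end fragment is endostatin, differed by -0.11 (SE 0.13), and its 3 kept probes by -0.11, -0.11 and -0.082.

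Col4a5 was the collagen IV chain with a larger difference. It read 5.68, 5.72 and 5.02 in shAtad2 against 5.08, 5.27 and 4.60 in shCtrl. The groups overlapped because the third array was the lowest of each, while the difference was 0.60, 0.45 and 0.42 in the pairs. The change was 0.49 (SE 0.25), or 1.40-fold higher, with an unadjusted p of 0.0832 by limma. With the replicate block the SE was 0.13, the unadjusted p 0.00582 and the adjusted p 0.167. Col4a5 was above background on 2 shAtad2 arrays and 1 shCtrl array, and its change was 0.13 without background correction, so its size is uncertain. Its neighbour Col4a6, which starts 1343 bases away on the other strand of the X chromosome, was above background on 1 array.

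Col2a1, the fibrillar collagen of cartilage and notochord, had 3 kept probes, all of them higher in shAtad2. It read 8.05, 8.13 and 7.46 in shAtad2 against 7.65, 7.48 and 7.19 in shCtrl, and again the third array was the lowest of each group. The differences in the pairs were 0.40, 0.65 and 0.28. The change was 0.44 (SE 0.22), or 1.36-fold higher, with an unadjusted p of 0.0738 by limma (0.0132 with the replicate block) and an adjusted p of 0.694 (0.236 with the block). All 3 Col2a1 probes were above background on every array. The second read 7.33, 7.43 and 6.79 against 6.82, 7.11 and 6.61, a difference of 0.33. The third read 7.10, 6.77 and 6.37 against 6.06, 6.01 and 5.82, a difference of 0.78 (SE 0.20) without overlap, and with every kept probe tested by itself its adjusted p by limma was 0.502 (0.167 with the replicate block).

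Col5a1, a fibrillar collagen that sets the width of collagen fibrils, showed a small and tight difference. It read 7.95, 7.94 and 7.86 in shAtad2 against 7.69, 7.70 and 7.62 in shCtrl, and the groups did not overlap. The pairs differed by 0.27, 0.25 and 0.24. The change was 0.25 (SE 0.12), or 1.19-fold higher, at an unadjusted p of 0.0756 by limma (0.0859 with the replicate block, adjusted p = 0.699 and 0.457), where the SE of the fit borrows spread from all genes. Markers of fibroblasts, which make such collagens, were read beside these genes. Of 14 genes 7 were measured, 3 reading higher and 4 lower (median -0.083), with the smallest p-values for the proteoglycan Dcn (0.78, SE 0.25, adjusted p = 0.501 by limma) and the factor Twist2 (0.43, SE 0.25). Dcn and Twist2 were each above background on 4 arrays, so the sizes of their changes are uncertain. Of the other measured markers, Thy1 (0.22) read higher, while Tagln (-0.26), Twist1 (-0.22), Mfap5 (-0.22) and Acta2 (-0.083) read lower. The summed intensity of the 7 measured genes ran from 588.8 to 969.1 in shAtad2 and from 559.4 to 827.4 in shCtrl. Thy1 made up 41.8% to 73% of that sum. The other 6 genes summed to 271.7 to 303.1 in shAtad2 and 223.5 to 370.3 in shCtrl. Lum, Fap, Pdgfrb and Postn were not above background on 3 arrays, nor were Col1a1 or Col3a1 on any array. Of 8 endothelial markers 3 were measured, with a median of -0.043, Tek at -0.12 (SE 0.24) and Pecam1 at -0.043 (SE 0.25), and a summed intensity of 68.92 to 133.3 in shAtad2 and 103.9 to 115.8 in shCtrl. The part of these cells in the collagen differences was not tested.

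The other collagen genes ran from -0.13 to 0.28. On the higher side were Col7a1 of the anchoring fibrils under the skin (0.28, SE 0.34), Col9a2 (0.19, SE 0.25) and Col9a3 (0.017, SE 0.23), which coat cartilage fibrils, Col26a1 (0.17, SE 0.28), Col11a2 (0.12, SE 0.16), Col6a2 of beaded filaments (0.020, SE 0.14) and Col27a1 (0.0083, SE 0.27). On the lower side were Col22a1 (-0.13, SE 0.26), Col8a2 (-0.12, SE 0.16) and Col16a1 (-0.034, SE 0.21). Col27a1 was above background on 1 shAtad2 and 2 shCtrl arrays. Each of these changes was smaller than 1 SE.

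Among the integrins, Itgae, the alpha chain of the E-cadherin receptor of resident T cells, was the gene with the smallest p-value. It read 7.22, 7.03 and 6.73 in shAtad2 against 7.37, 7.35 and 7.39 in shCtrl. The groups did not overlap, the shCtrl arrays lay within a narrow range and the shAtad2 arrays were spread below them. The change was -0.38 (SE 0.16), or 1.30-fold lower, with an unadjusted p of 0.043 and an adjusted p of 0.606 by limma (0.0349 and 0.327 with the replicate block). Of the 3 kept probes of Itgae, 2 read lower and a dim one higher. A second probe read 7.16, 6.68 and 6.86 against 7.36, 7.35 and 6.94, a difference of -0.32. The third probe, a dim one, read 5.45, 5.46 and 5.66 against 5.06, 4.77 and 4.73, and was above background on all shAtad2 arrays and on no shCtrl array. As a bound it was at least 1.37-fold higher in shAtad2, the shCtrl level being set per array to the lowest signal above background where the probe lay under it. This probe passed the filter only through the group in which it was high, so its direction gives no separate support. The mean of the kept probes, which includes it, differed by -0.011. Itgb7, the beta chain that pairs with Itgae, read 5.47, 5.21 and 5.34 against 5.54, 5.83 and 5.24, with overlapping groups and a change of -0.20 (SE 0.18).

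Receptors for laminin and fibronectin were spread on both sides of no change. Itga5, the fibronectin receptor, read 7.51, 7.71 and 7.33 in shAtad2 against 7.77, 7.85 and 7.57 in shCtrl. It was lower in each pair, by -0.25, -0.14 and -0.24, but the groups overlapped, the change was -0.21 (SE 0.16), and its second probe lay between 6.22 and 6.67 in shAtad2, around the shCtrl arrays, and differed by 0.028. Itga6, a laminin receptor used as a marker of stem cells, read 6.96, 7.13 and 7.04 against 6.98, 6.87 and 7.61. The third shCtrl array was the highest, and the change was -0.11 (SE 0.21) with a second probe at 0.12 (SE 0.26). Itgb4, which joins Itga6 in hemidesmosomes, read 6.38, 6.63 and 6.50 against 7.11, 6.51 and 6.51. Only the first shCtrl array was high, the change was -0.21 (SE 0.19), and a second probe differed by 0.071. Itga3, another laminin receptor, read 8.12, 8.04 and 8.30 against 7.51, 7.67 and 8.36, a change of 0.31 (SE 0.23) in which shCtrl 3 stood apart from its group. Without that array, whose value had been seen, the change was 0.56 (unadjusted p = 0.00722 and adjusted p = 0.303 by limma). In that setting 11.6% of all genes had an unadjusted p under 0.05. Without shCtrl 1 the Itga3 change was 0.14. Itgb1, the beta chain of most matrix-binding integrins, differed by 0.027 (SE 0.17, 95% interval -0.37 to 0.43). Itgav and Itgb5, which together bind vitronectin, differed by 0.055 (SE 0.19) and -0.040 (SE 0.14), and Itga9, a tenascin receptor, by 0.022 (SE 0.23). Itgal, an integrin of lymphocytes, was above background on 1 shAtad2 and all 3 shCtrl arrays and differed by -0.16 (SE 0.30).

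The members also varied with the third replicates. Relative to the mean of the first and second arrays of its group, the third array moved the same way in both groups in 21 of the 33 members (63.6%), against 64.6% of all genes. It was more than 0.5 away in the same direction in both groups in 4 members (12.1%), against 8.43% of all genes. All 4 were collagens. Col9a2 was higher by 0.53 in shAtad2 and 0.69 in shCtrl, and Col9a3 by 0.51 and 0.67. Col4a5 lay at -0.68 and -0.57, and Col22a1 at -0.77 and -0.57. Other members were displaced in one group alone, as with Col26a1 at -1.04 in shCtrl and -0.092 in shAtad2, or Itga9 at 0.084 in shCtrl and -0.72 in shAtad2. These are single arrays and were not tested.

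**Figure D4:**
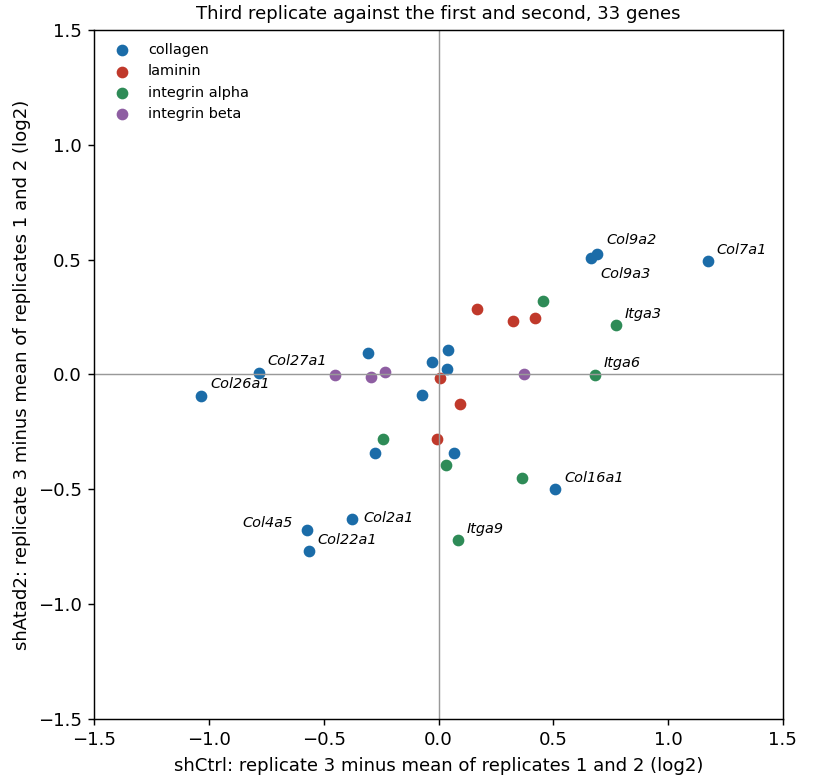
Each point is a measured gene, placed by how far the third replicate lay from the mean of the first and second in shCtrl (horizontal axis) and in shAtad2 (vertical axis), in log2 units. Genes more than 0.5 away in either group are named, with Col9a2 and Col9a3 high in both, Col4a5 and Col22a1 low in both, and Col16a1 at 0.51 in shCtrl and -0.50 in shAtad2.

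Genes that work with this family were read from 6 lists of 135 genes in all, of which 84 were measured. At an adjusted p under 0.05 limma called 0 of them, with or without the replicate block. An unadjusted p under 0.05 was found for 5 higher and 4 lower genes (10.7% together, against 7.92% of all genes), or 17 (20.2%, against 13.4%) with the block. The median change was 0.035, and 57.1% of the 84 read higher, against 49.7% of all genes. Over all 10072 genes, 415 higher and 383 lower ones had an unadjusted p under 0.05 by limma. The counts by list below are each of few genes. Basement membrane partners counted 7 higher and 3 lower of 10 measured, with none at an unadjusted p under 0.05. Nid1, which bridges laminin and collagen IV, differed by 0.37 (SE 0.22, above background on 4 arrays) and its relative Nid2 by -0.23 (SE 0.14). Other integrin ligands counted 3 higher and 6 lower of 9, with 2 lower ones at an unadjusted p under 0.05. Icam1, the ligand of leukocyte integrins, read 6.84, 6.83 and 6.97 in shAtad2 against 7.51, 7.39 and 7.48 in shCtrl, without overlap and with a change of -0.58 (SE 0.13, adjusted p = 0.329 by limma). Ccn2, a matrix-bound growth regulator, differed by -0.39 (SE 0.13).

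Enzymes and carriers of collagen synthesis counted 8 higher and 15 lower of 23, of which 2 and 2 had an unadjusted p under 0.05. Plod1, a lysyl hydroxylase of collagen, read 6.21, 5.96 and 6.02 in shAtad2 against 4.87, 5.40 and 5.56 in shCtrl, a change of 0.78 (SE 0.20, adjusted p = 0.4 by limma) without overlap. Plod1 is dim and was above background on 5 arrays, so the size of its change is uncertain. Sec13, a coat protein of the vesicles that leave the endoplasmic reticulum, read 12.89, 12.93 and 12.86 against 13.40, 13.31 and 13.30, a change of -0.45 (SE 0.12) without overlap. Receptors other than integrins counted 7 higher and 3 lower of 10, with 1 higher at an unadjusted p under 0.05, the syndecan Sdc3 (0.40, SE 0.14), and with Ddr1, a collagen-activated kinase, at 0.63 (SE 0.29). Adaptors that link integrins to actin counted 16 higher and 3 lower of 19 (84.2% higher, against 49.7% of all genes), with a median of 0.071. The tensin Tns1 (0.71, SE 0.25) was the 1 higher at an unadjusted p under 0.05 by limma, and Fermt1, a kindlin, lay at -0.30 (SE 0.19). Tns1 was above background on 5 arrays, and the size of its change is uncertain. Matrix proteases and their inhibitors counted 7 higher and 6 lower of 13, with 1 higher at an unadjusted p under 0.05, the collagenase Mmp2 at 10.90, 10.87 and 10.76 in shAtad2 against 10.35, 10.35 and 10.37 in shCtrl (0.49, SE 0.12, adjusted p = 0.394 by limma). Timp1, an inhibitor of such proteases, differed by -0.32 (SE 0.15).

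**Figure D5:**
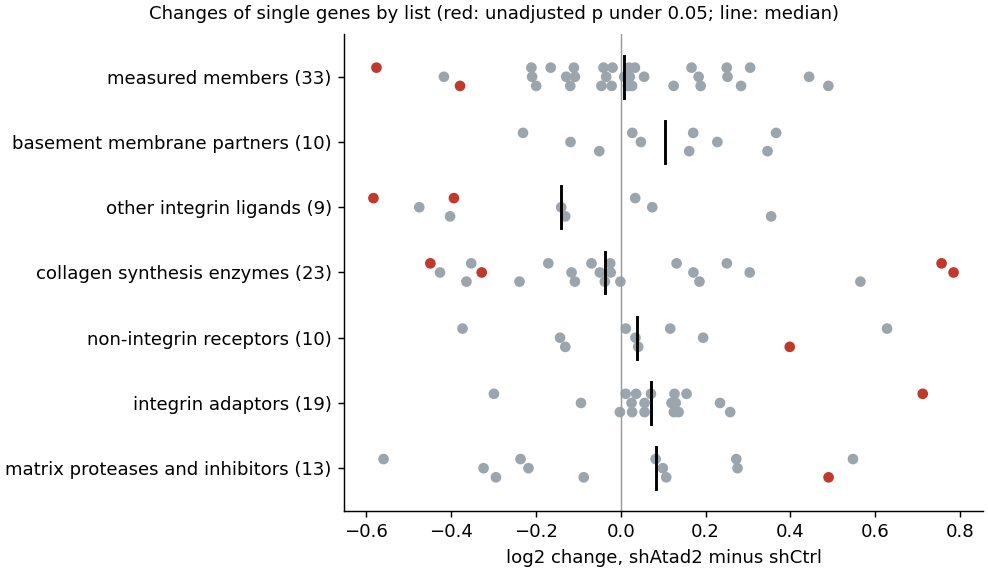
Each point is the log2 change of a gene, shAtad2 minus shCtrl, for the 33 measured members and for 6 lists of genes that work with them, with the number measured in brackets. Red points have an unadjusted p under 0.05 by limma, 2 among the members and 9 over the lists, and black lines are medians, which lie between -0.14 for other integrin ligands and 0.10 for basement membrane partners.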

How the data were processed

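The authors deposited 2 tables of the 6 arrays, one of processed intensity and one of unnormalized intensity in which each probe also has a detection p-value. How the authors made the processed values, and which scanner software they used, is not given in the sources used here. Processed columns shared a median of 141.1 and kept the probe order of the unnormalized intensity within each array (Spearman correlation 1). For the results, limma 3.58.1 (R 4.3.3) took the unnormalized intensity through neqc, which corrects background by normexp using detection p-values, adds an offset (16), quantile-normalizes and takes log2. Of 45281 probes, 18085 had a detection p-value under 0.05 on at least 3 arrays. The brightest of these stood for each of 10072 genes, while 2585 of them lacked a single symbol and were not used. Symbols came from the platform annotation, brought up to date by Entrez identifier (GRCm38.p6 gene table), which changed 0 member probes.

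Groups and replicate numbers came from the sample titles. shAtad2 was compared with shCtrl with lmFit and eBayes of limma, two-sided and without a block, and p-values were adjusted over all genes by Benjamini-Hochberg. Deviations from the group mean correlated between same-numbered arrays at 0.298, 0.287 and 0.578, all above 0.1. Differently numbered arrays among replicates 1 and 2 correlated alike, at 0.342 (shAtad2 2 with shCtrl 1) and 0.299 (shAtad2 1 with shCtrl 2). The numbers thus marked out a pair for replicate 3 alone, and differences in pairs describe same-numbered arrays only. The fit with the replicate block is an alternative, given where it changed a count. The number of arrays limits the precision. The members, the lists, the alternatives and the rule for named genes (members with an unadjusted p under 0.05 in either fit, members whose kept probes differ in sign, the chains of the 2 basement membrane trimers, and for each list the 2 genes with the smallest p) were chosen with earlier results of these data known. Col5a1, Gata6, Pdgfra, the array values of Itga3 and the within-array comparison of Lamb1 were added after their values were seen. The fits were tested on simulated data.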

Additional observations from a re-analysis of the deposited data

How the results depend on the processing

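The call of 0 members at an adjusted p under 0.05 held in all 17 alternatives. The count at an unadjusted p under 0.05 by limma was 2 (6.06%) as reported, against 7.92% of all genes. It was 1 (3.03%) without background correction and 0 with the processed values of the authors, against 7.91% and 7.83% of all genes. It was 4 of 77 genes (5.19%) without a filter on dim probes, against 6.73%. With a trended and robust variance it was 1 (3.03%) against 7.85%, and with the replicate block 4 (12.1%) against 13.4%. Without replicate 3 of both groups it was 5 (15.2%) against 17.6%. With single arrays left out it ran from 1 (without shCtrl 1, 3.03% against 5.71%) to 3 (9.09%). The 3 were found without shAtad2 3 or shCtrl 3, where all genes gave 10.4% and 11.6%. The members whose groups did not overlap (3 as reported) were 16 (48.5%) without replicate 3 of both groups, where 2 arrays stand against 2 and all genes gave 49.4%, and 3 to 12 with single arrays left out (12 without shCtrl 3, 8 without shAtad2 2 and 6 without shAtad2 3, where all genes gave 31.2%, 19.8% and 29.6%). Over all genes (0 as reported) 1 gene passed without background correction, with an offset of 50, with the processed values or with a trended and robust variance, 10 passed with the replicate block and 3 without replicate 3 of both groups, and 0 with any single array left out. The members' median stayed between -0.040 and 0.070. Lamb1 was lower in every alternative, from -0.66 to -0.53 with single arrays left out, at -0.33 with the offset of 50.

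Signs turned for Col4a1 (0.0020 without replicate 3 of both groups), Col4a2 (0.12 there) and Itga6 (0.12 there and 0.0067 with the mean of kept probes). With single arrays left out Col4a1 ran from -0.11 to 0.095, Col4a2 from -0.093 to 0.093 and Itga6 from -0.25 to 0.12. Col2a1, Col4a5, Col5a1, Itgae and Lamc1 kept their sign in every alternative run, and of the 33 members 17 did. An alternative that keeps probes above background on all arrays tested 27 members and gave no value for Col4a5. Signal over background limits the dim probes, among them those of Lamb1, Lamb3 and Col4a5, and the sizes of their changes are uncertain.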
